A study of Mus musculus with 6 samples.

Results

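The circadian clock genes described here are 10 genes of the cell-autonomous daily oscillator: Arntl, Clock, Per1, Per2, Cry1, Cry2, Nr1d1, Nr1d2, Dbp and Nfil3. They were taken by name, as all probe sets whose single gene symbol in the platform annotation is one of the 10, which gave 18 of the 34945 probe sets with 1 gene symbol. Expression was measured on Affymetrix 3' arrays in myeloid cells sorted from femur and tibia marrow of Hdc-GFP mice on a C57BL/6 background, in which green fluorescent protein reports the activity of the histidine decarboxylase gene. The Gr1lo group (3 arrays) holds cells positive or high for GFP, positive for the integrin CD11b and low for the antigen Gr1, and the Gr1hi group (3 arrays) holds cells of the same GFP and CD11b phenotype that are high for Gr1. No group received a treatment, both carry the reporter. The labels do not give age, pooling of animals or whether replicates are separate animals, and the p-values below cover no spread beyond that of these samples. The mice were kept on a light-dark cycle of 12 hours each, per the labels, which give no hour of marrow collection. The hour of collection and the group therefore cannot be told apart from these labels. The arrays measure bulk RNA, so fewer cells of a type and less RNA per cell cannot be told apart either.

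In the clock, the transcription factors encoded by Arntl (BMAL1) and Clock bind E-box elements as a pair and drive the Per and Cry genes, whose proteins return to repress that pair. Nr1d1 and Nr1d2, which encode the nuclear receptors REV-ERB alpha and beta, repress Arntl, while Dbp activates and Nfil3 represses genes through D-box elements. Neutrophils are known to change with the time of day in number, surface receptors and granule content, and Arntl and Per2 have been tied to this. Per1 is also induced directly by glucocorticoid hormones and by cyclic AMP signalling, outside the loop.

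The regions before the start sites are shown for Per1 and Cry1, because these were the only members with the canonical E-box in that window and their values differ in behaviour below. RefSeq promoters of build GRCm38.p6 were found for 9 of the 10 members, and both strands of the 250 bases before each start were searched. The E-box was spelled CACGTG, the D-box TTATGNAA, the cyclic AMP response element TGACGTCA and the core of the REV-ERB and ROR site AGGTCA. The E-box was in 2 of the 9 members, against 6.86% of 27025 genes, and the D-box in 1 (Per1), against 3.63%. The AGGTCA core was in 4 members (Clock, Per1, Nr1d2 and Nfil3), against 15.8% of genes, and the cyclic AMP element was in 0 of these windows, against 1.77%. Capitals mark the E-box in both stretches and, near the end of the Per1 stretch, the D-box. In Per1 the E-box starts at position -166 and the D-box at position -24 from the first of its 2 start sites (chr11:69098699-69098948, plus strand), and in Cry1 the E-box starts at position -60 (chr10:85185055-85185304, minus strand). A match of letters is a description and does not show that a factor was bound.
Per1: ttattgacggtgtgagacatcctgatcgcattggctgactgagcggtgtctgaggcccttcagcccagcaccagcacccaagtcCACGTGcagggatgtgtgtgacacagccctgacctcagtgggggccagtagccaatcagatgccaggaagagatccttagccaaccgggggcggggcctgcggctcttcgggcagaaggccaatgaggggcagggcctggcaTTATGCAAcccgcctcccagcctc
Cry1: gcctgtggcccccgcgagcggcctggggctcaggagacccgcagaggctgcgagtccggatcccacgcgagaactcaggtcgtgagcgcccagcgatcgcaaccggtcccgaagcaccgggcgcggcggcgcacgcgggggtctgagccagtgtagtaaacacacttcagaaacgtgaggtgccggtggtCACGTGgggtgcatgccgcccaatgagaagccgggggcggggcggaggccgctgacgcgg

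Values are log2 probe set values made by the authors with GCRMA, and each difference is Gr1hi minus Gr1lo on that log2 scale. The number of arrays limits their precision. Probe sets for a transcript absent from mouse lay between 2.21 and 2.77 and mark the background. Neutrophil markers were high in both groups. Their mean log2 level over 9 genes was 12.67 to 13.06 in Gr1lo arrays and 13.85 to 13.92 in Gr1hi arrays. Of these 9, 3 were higher and 0 lower in Gr1hi (limma, adjusted p under 0.05, with 0 lower also at an unadjusted p under 0.05). Among all tested genes 24.6% were higher and 31.8% lower. Mean levels of natural killer cell markers (2.58 to 2.93), erythroid markers (2.39 to 2.86) and stromal and endothelial markers (2.46 to 2.78) lay at or near background on all arrays. The range was 3.15 to 3.32 for megakaryocyte, 3.29 to 3.73 for B cell, 3.36 to 3.72 for eosinophil, 3.50 to 5.26 for basophil and mast cell, and 5.47 to 6.42 for monocyte and macrophage markers. These means hide single moves, given beside 24.6% of all tested genes higher and 31.8% lower. Of 7 tested monocyte and macrophage markers 2 rose (Csf1r by 4.01 and Adgre1 by 2.99) and 2 fell (Vcam1 fell by 5.25 and F13a1 fell by 0.98). Of 5 tested basophil and mast cell markers 2 fell (Kit fell by 1.94 and Ms4a2 fell by 1.64). Of 6 tested B cell markers 3 rose (Ms4a1 most, by 0.96) and 1 fell (Cd79b fell by 0.74). Of 4 tested megakaryocyte markers 1 rose (Pf4 by 0.48) and 1 fell (Gp1bb fell by 0.96). Of 3 tested erythroid markers 1 fell (Hemgn fell by 1.96). The eosinophil marker Siglecf read 8.06 to 8.69, well above the mean of its list, and did not pass the test. The part of these cell types in the results below was not tested. T cell markers averaged 2.62 to 2.89 in Gr1lo and 3.68 to 3.70 in Gr1hi, which mostly reflects Cd3d (a difference of 4.17), while Cd3e, Cd3g and Cd2 read 2.04 to 2.76 and were not tested. These marker genes were named after their values were seen. For Gr1lo replicate 3 the description, unlike the title, could be read as GFP-negative, and without that array the same number of clock genes was called in each direction as with it (3 higher and 2 lower). All 6 arrays are labelled female, yet the Y-linked gene Eif2s3y read 9.02 to 10.66 on them. Xist read 10.95 and 10.14 on the replicate 3 arrays of Gr1lo and Gr1hi, and at most 2.43 on the other 4. The replicate 3 arrays thus stand apart, and without both of them the members called were again 3 higher and 2 lower.

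Of the 10 clock genes 9 passed the filter on low values, and among these Per1, Nfil3 and Clock rose in Gr1hi, Arntl and Nr1d2 fell, and Per2, Cry1, Cry2 and Dbp did not pass the test (limma, adjusted over 12732 genes). The clock genes thus moved in both directions, with a median difference of -0.05 against 0.03 for all tested genes. In this comparison 56.4% of all tested genes were called, 24.6% higher and 31.8% lower, so that 5 of 9 is near the share of genes in general. The 3 arrays of Gr1hi all lay above those of Gr1lo for 2 of the 9 and all below for 3, against 30.7% and 34.8% of tested genes (65.5% either way). Per1 had the largest difference of the 9, and 3.91% of all tested genes had a larger one in size; for Nfil3 that share was 18.2% and for Arntl 30.0%.

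**Figure D1:**
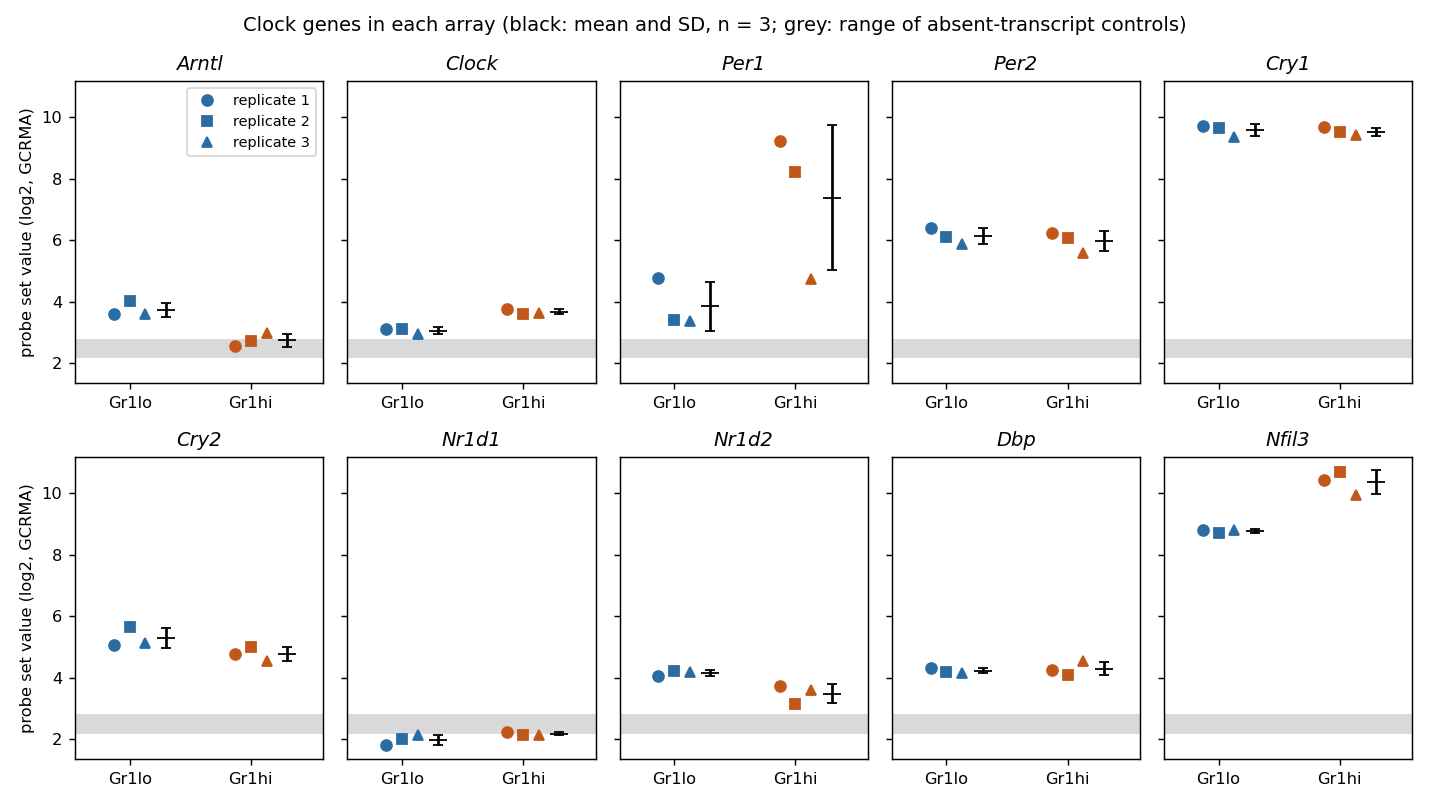
Log2 GCRMA value (y axis) of the probe set that stands for each of the 10 clock genes in the 3 Gr1lo (blue) and 3 Gr1hi (orange) arrays; symbols mark replicates, black bars the mean and SD (n = 3), and the grey band the range of the controls for an absent transcript, 2.21 to 2.77. Nfil3 separates the groups clearly, Per1 is spread from 4.75 to 9.22 within Gr1hi, and Nr1d1 lies within or below the band on all 6 arrays.

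Among the activators of the loop, Arntl fell and Clock rose. Arntl, the obligate partner of the clock activator, read 3.61, 4.02 and 3.62 in Gr1lo and 2.55, 2.71 and 2.98 in Gr1hi. All Gr1hi arrays lay below all Gr1lo arrays, and 2 of them lay within the background range, so the size of the fall depends on that background. The mean of both Arntl probe sets, of which 1 was at background, differed by -0.55. Arntl fell 2.00-fold, by 1.00 on the log2 scale (SE 0.16; limma adjusted p of 0.000474). After centring each array on the median of tested genes it was -0.32 and the call was lost (adjusted p = 0.0758; 1.37e-05 to 0.0758 over all alternatives). The other Arntl probe set, 1457740_at, read 1.94 to 2.18 on the 6 arrays and was not tested.

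Clock, which encodes the histone acetyltransferase partner of BMAL1, read 3.13, 3.13 and 2.95 in Gr1lo and 3.78, 3.61 and 3.66 in Gr1hi. The groups did not overlap, but all values stood close to background. The rise was 0.61 (SE 0.12, limma adjusted p = 0.00189), and after centring on the hybridization controls it was 0.36 and no longer called (adjusted p = 0.114; 1.06e-05 to 0.114 over all alternatives). Clock has 4 probe sets, all tested on their own: 1418659_at and 1418660_at rose by 0.61 and 0.45, while 1435775_at (0.22, limma adjusted p = 0.161) and 1439314_at (-0.09, adjusted p = 0.549) did not pass. The mean of the 4 differed by 0.30. Among all 22695 tested probe sets 56.2% were called, and among the 14 tested probe sets of the clock genes 5 were called higher and 2 lower, against 26.2% and 30% of all.

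The Period genes, whose products carry the repressor complex, did not move together. Per1 read 4.79, 3.41 and 3.39 in Gr1lo and 9.22, 8.21 and 4.75 in Gr1hi. Gr1hi replicate 3 lay just below Gr1lo replicate 1, so the groups overlapped, and the SD within Gr1hi was 2.34. Per1 rose by 3.53 (SE 0.96, 95% interval 1.36 to 5.71, limma adjusted p = 0.0108), an 11.6-fold difference. Its size ranged from 2.62 without Gr1hi replicate 1 to 4.85 without Gr1hi replicate 3, and the call was lost without Gr1hi replicate 2 (3.12, adjusted p = 0.0503; 9.38e-05 to 0.0503 over all alternatives). Without both replicate 3 arrays it was 4.62 (adjusted p = 0.000304).

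Per2, the other main Period gene of the loop, read 6.39, 6.13 and 5.88 in Gr1lo and 6.25, 6.09 and 5.61 in Gr1hi on its probe set with the highest mean, 1417602_at. The arrays of the groups interleaved. The difference of -0.15 did not pass the test (95% interval -0.67 to 0.37, limma adjusted p = 0.596), and its sign turned with the mean of the gene's probe sets, with repeated quantile normalization, with centring on the median of tested genes and without Gr1hi replicate 3. Its 3 probe sets disagreed: 1417603_at rose by 0.45, from 2.93 ± 0.02 to 3.37 ± 0.12 (SD, n = 3 per group; limma adjusted p = 0.00677 over all probe sets), and 1457350_at differed by 0.45 without passing (adjusted p = 0.137). The probe set that rose lay close to background in both groups.

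**Figure D2:**
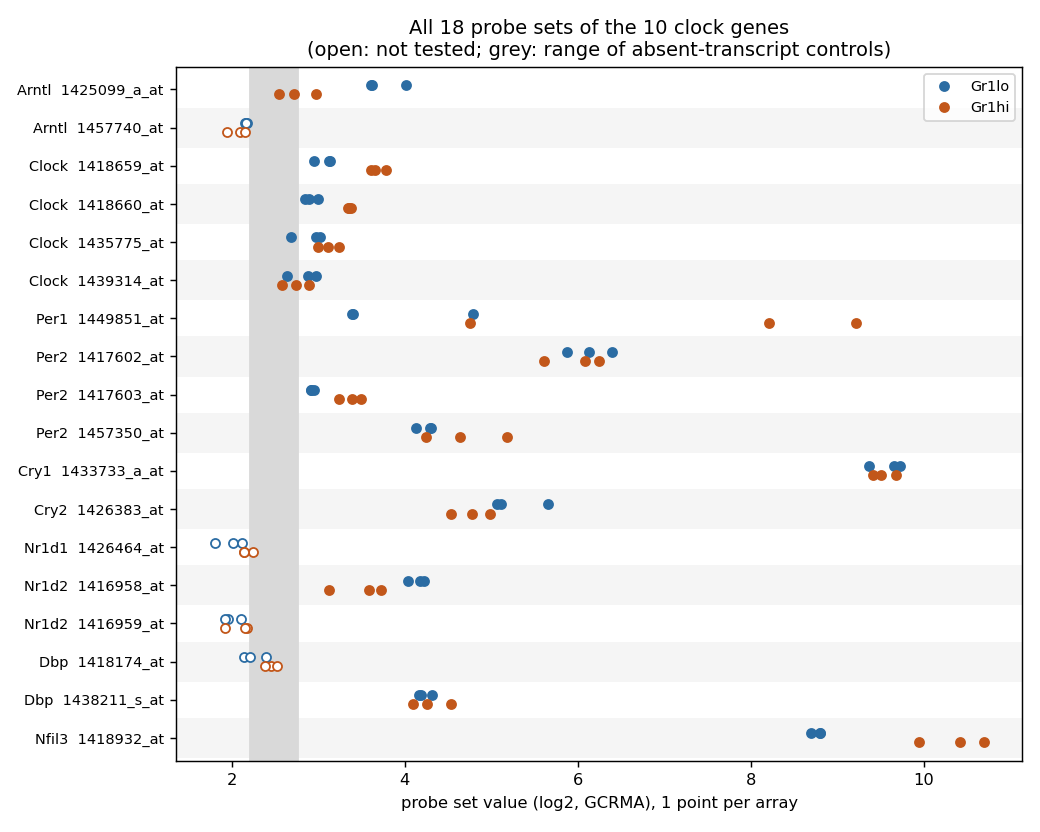
Log2 GCRMA values (x axis) of all 18 probe sets of the 10 clock genes (y axis), with 1 point per array, Gr1lo in blue and Gr1hi in orange, open where the probe set was not tested; the grey band is the range of the absent-transcript controls, 2.21 to 2.77. The 4 untested probe sets, 1 each of Arntl, Nr1d1, Nr1d2 and Dbp, read at most 2.52, and the 4 Clock probe sets all read below 3.79.

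Neither Cryptochrome gene, which encode the main repressors of the activator pair, passed the test. Cry1 read 9.72, 9.66 and 9.37 in Gr1lo and 9.68, 9.51 and 9.42 in Gr1hi, far above background, with the groups interleaved. Its difference was -0.05 (95% interval -0.35 to 0.26, limma adjusted p = 0.79). Centred on the median of tested genes, Cry1 was higher in Gr1hi by 0.63 and called (adjusted p = 0.00147; 0.00147 to 0.968 over all alternatives). Cry2 read 5.06, 5.66 and 5.12 in Gr1lo and 4.78, 4.99 and 4.54 in Gr1hi. All Gr1hi arrays lay below all Gr1lo arrays, yet the difference of -0.51 missed the threshold (95% interval -1.02 to -0.0049, limma adjusted p = 0.0799). It passed in the fit on probe set means (limma adjusted p = 0.0499). Cry2 has no second probe set, so its difference stayed at -0.51 there and only the SE (0.19 instead of 0.23) and the adjustment, which draw on all genes, moved. It also passed with centring on the hybridization controls (-0.77, adjusted p = 0.0189), and was 0.16 after centring on the median of tested genes (0.0189 to 0.519 over all alternatives).

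Of the REV-ERB repressors only Nr1d2 was measured above background. Nr1d1 read 1.80, 2.01 and 2.12 in Gr1lo and 2.25, 2.15 and 2.14 in Gr1hi and was not tested. The Gr1hi arrays lay above the Gr1lo arrays, but all lay within or below the range of the absent-transcript controls. Nr1d2 read 4.04, 4.22 and 4.18 in Gr1lo and 3.72, 3.13 and 3.59 in Gr1hi, with no overlap. Nr1d2 fell 1.59-fold, by 0.67 on the log2 scale (SE 0.18; limma adjusted p of 0.0103). After centring on the median of tested genes the difference was 0.0068 and the call was lost (adjusted p = 0.973; 0.00126 to 0.973 over all alternatives). Its second probe set, 1416959_at, read 1.92 to 2.17 and was not tested, and the mean of both differed by -0.29.

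The D-box factors differed from each other. Nfil3, a D-box repressor that is also needed for the development of natural killer cells, read 8.80, 8.70 and 8.80 in Gr1lo and 10.42, 10.70 and 9.95 in Gr1hi. All Gr1hi arrays lay above all Gr1lo arrays, whose SD was 0.06. Nfil3 rose 3.01-fold, by 1.59 on the log2 scale (SE 0.18; limma adjusted p of 4.56e-05), and was called in 18 of 18 alternatives with differences of 1.33 to 2.27. Of the natural killer cell markers 4 of 7 were tested and 3 rose, Prf1 by 0.52, Eomes by 0.31 and Klre1 by 0.25, beside 24.6% of all tested genes. The mean level over the list was 2.58 to 2.59 in Gr1lo and 2.71 to 2.93 in Gr1hi. Prf1 and Eomes read 2.51 to 2.68 in Gr1lo, around the filter cut of 2.57 to 2.68, so their test leaned on the Gr1hi arrays and favoured a rise. Of 3 tested stromal and endothelial markers, also near background, 2 rose (Cdh5 by 0.49 and Col1a1 by 0.45) and 1 did not pass. Cdh5 (2.39 to 2.52) lay below that cut on all Gr1lo arrays, so only a rise could be called for it. Col1a1 (2.36 to 2.65) lay around the cut in Gr1lo, so its test also leaned on the Gr1hi arrays and favoured a rise. Ncr1 (1.97 to 2.26) and Gzmb (2.21 to 2.55) were not tested, and the part of these cells in the Nfil3 difference was not tested either. Dbp, the D-box activator, read 4.32, 4.19 and 4.17 in Gr1lo and 4.25, 4.10 and 4.54 in Gr1hi. Its groups overlapped, and the difference of 0.07 did not pass (95% interval -0.32 to 0.46, limma adjusted p = 0.753), but was 0.74 and called after centring on the median of tested genes (adjusted p = 0.00222; 0.00222 to 0.883 over all alternatives) and -0.19 with the hybridization controls. The other Dbp probe set, 1418174_at, read 2.14 to 2.52 and was not tested.

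**Figure D3:**
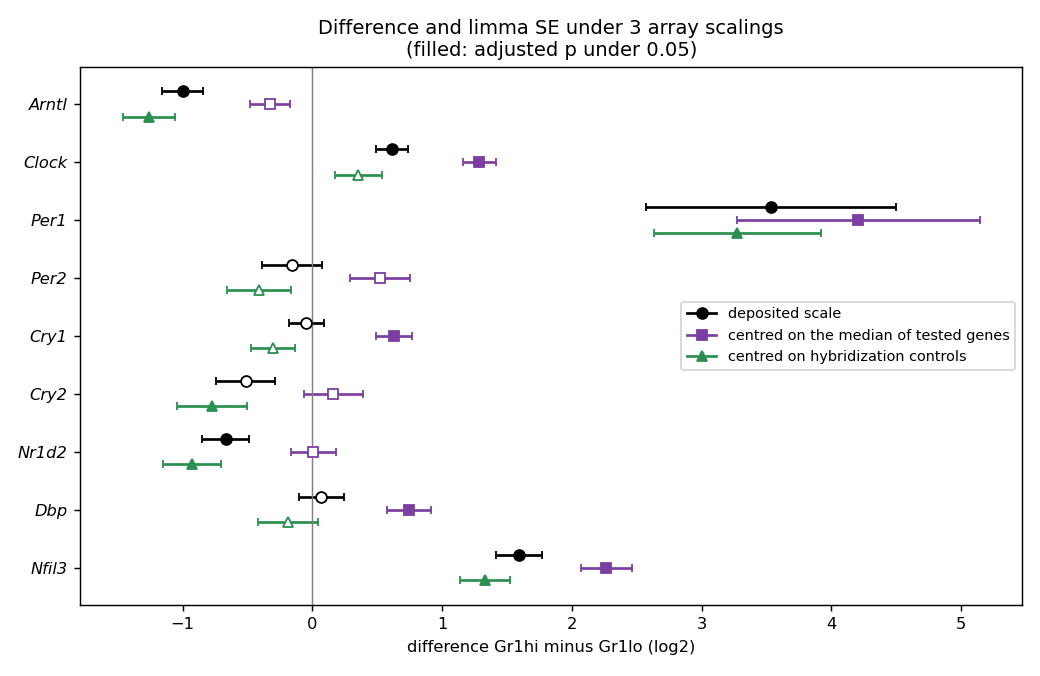
Difference Gr1hi minus Gr1lo on the log2 scale (x axis) for the 9 tested clock genes (y axis) with the limma SE as error bars, on the deposited scale (circles), with arrays centred on the median of tested genes (squares) and on the hybridization controls (triangles); filled symbols passed an adjusted p of 0.05. Per1 and Nfil3 stay above 0 and filled on all 3 scales, while Arntl, Clock, Cry1, Cry2, Nr1d2 and Dbp are filled on some scales only.

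The scale moved these calls. Over all tested genes the median difference was 0.03 as deposited, 0.70 after centring on tested genes and -0.23 after centring on the hybridization controls, and the share of called genes that were higher in Gr1hi moved from 43.6% to 78.3% and 27.7%. A difference between 2 clock genes on the same array does not depend on the constant of that array, so 4 functional pairs are also described within arrays. The pairs were chosen after the values were seen, so no test is given. A lack of overlap is common here, as 65.5% of single tested genes showed it. Clock minus Arntl was -0.47, -0.89 and -0.68 in Gr1lo and 1.23, 0.89 and 0.68 in Gr1hi, with no overlap. The mean change was 1.61, a size that rests on Arntl values at the edge of background in Gr1hi. Nfil3 minus Dbp went from 4.54 ± 0.08 to 6.06 ± 0.60 (SD, n = 3 per group), a change of 1.52 with no overlap. Per1 minus Per2 changed by 3.69, also with no overlap, from values of -1.61, -2.72 and -2.48 to 2.98, 2.13 and -0.85. Cry1 minus Cry2 changed by 0.47, and its groups overlapped.

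Of 11 other clock transcription genes with a probe set 8 were tested, of which 4 fell and 0 rose (limma, adjusted p under 0.05; 0 rose also at an unadjusted p under 0.05), with a median difference of -0.51, beside 31.8% lower and 24.6% higher among all tested genes. After centring on the median of tested genes 4 were called higher and 1 lower, with a median of 0.17, beside 65.5% higher and 18.2% lower among all tested genes. Timeless, a relative of the fly clock gene that in mammals acts mainly at the replication fork, read 7.23, 7.85 and 7.38 in Gr1lo and 2.85, 2.41 and 2.59 in Gr1hi, and it fell by 4.87 (limma adjusted p = 2.78e-07), a call kept on all 3 scales. Its Gr1hi values lay in or near the background range, so the size of that fall is limited by background. Per3, the third Period gene, fell by 0.81, the PAR bZIP factor gene Hlf fell by 0.86, and Bhlhe40, whose product DEC1 competes for E-boxes, fell by 0.88 (limma adjusted p of 0.00555, 0.00182 and 0.00484). These last calls were lost after centring on the median of tested genes, where the differences were -0.14, -0.18 and -0.20. Npas2 (0.14), a Clock paralog, Rora (0.19), an activator of Arntl, Ciart (0.15) and the PAR bZIP gene Tef (-0.21) did not pass. The values of Npas2 (2.66 to 3.00), Rora (2.67 to 3.25) and Ciart (2.46 to 2.93) lay in or near the background range. With Tef (0.47), these near-background genes (0.82, 0.87 and 0.82) were the ones called higher after centring on the median of tested genes. Arntl2, Rorb and Bhlhe41 did not pass the filter.

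Of 16 genes for kinases, ubiquitin ligases and cofactors that act on clock proteins 13 were tested, of which 4 rose and 6 fell (9 and 2 after centring on the median of tested genes, and 2 and 6 with the hybridization controls), with a median of 0.0023. Among all tested genes 24.6% were called higher and 31.8% lower, 65.5% and 18.2% after the first centring, and 14.6% and 38.1% with the hybridization controls. The casein kinase gene Csnk1e, whose product phosphorylates PER proteins, rose from 6.32 ± 0.35 to 9.14 ± 0.13 (SD, n = 3 per group; limma adjusted p = 2.62e-06). Prkaa1, a catalytic subunit of AMP-activated kinase, rose by 0.83. The PER-associated RNA-binding protein genes Nono and Sfpq fell by 1.22 and 1.56, the deacetylase gene Sirt1 by 1.01 and Hdac3, the corepressor enzyme of the REV-ERB proteins, by 1.00. Sfpq differed by -0.75 with the mean of its probe sets. The calls of Sirt1 (-0.33) and Hdac3 (-0.32) were lost after centring on the median of tested genes. Among 5 genes known as clock outputs 4 were tested, of which 1 rose and 3 fell. Wee1, a kinase that restrains mitosis, fell by 4.38 and the deubiquitinase gene Usp2 by 3.14, while Nampt, which makes a precursor of NAD, rose by 1.24 (limma adjusted p of 7.59e-07, 3.11e-06 and 4.17e-05). With the mean of its probe sets Wee1 differed by -2.77. Noct, a nocturnin gene, fell by 0.42 (adjusted p = 0.0293), and it no longer passed when Gr1lo replicate 1 (-0.35), Gr1hi replicate 1 (-0.34), Gr1hi replicate 3 (-0.34) or both replicate 3 arrays (-0.38) were left out, or without the variance trend (adjusted p = 0.0511). With arrays centred on the tested genes Noct was 0.26 (0.00153 to 0.155 over all alternatives).

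Because Per1 is known as a glucocorticoid-responsive and immediate early gene, other genes of both kinds are given beside it. Of 8 tested glucocorticoid-responsive genes 6 rose and 0 fell (limma; 7 rose and 0 fell at an unadjusted p under 0.05), with a median difference of 1.30, beside 24.6% of all tested genes higher and 31.8% lower. Without Gr1hi replicate 1, 6 rose and 1 fell. Sgk1 rose by 1.94, the phosphatase gene Dusp1 by 5.13, Ddit4 by 1.62, Tsc22d3 (the leucine zipper protein GILZ) by 1.57, Klf9 by 1.02 and the receptor gene Nr3c1 by 0.66. The call of Klf9 was lost with the mean of its probe sets (0.34). The remaining tested genes of the list, given after their values were seen, are Zbtb16 (0.39) and Fkbp5 (0.0083), which did not pass. Zbtb16 read 2.57 to 3.37, near background. With the mean of its probe sets Zbtb16 rose by 0.90 and was called (limma adjusted p = 0.00165), as in 4 of 17 alternatives. Fkbp5, a cochaperone gene of the receptor, read 10.43, 10.16 and 9.99 in Gr1lo and 11.26, 9.91 and 9.43 in Gr1hi, and without Gr1hi replicate 1 it was called lower (-0.52, limma adjusted p = 0.0424; 0.0424 to 0.991 over all alternatives).

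Of 10 tested immediate early genes 9 rose and 0 fell (limma; 10 rose and 0 fell at an unadjusted p under 0.05), with a median difference of 2.57, beside the same shares of all tested genes. The AP-1 gene Junb rose by 4.48, the early response genes Btg2, Ier3 and Zfp36 by 2.74, 2.70 and 2.70, and the transcription factor genes Atf3 and Egr1 by 2.23 and 1.32. Atf3 (2.16 to 2.48) and Egr1 (1.89 to 2.09) lay within or below the background range in Gr1lo, so the size of these rises is limited by background. Both passed the filter only through their Gr1hi arrays, so only a rise could be called for them. When 1 Gr1hi array was left out, 8 genes of this list were tested, of which 7 or 8 rose and 0 fell. The part of either group of genes in the Per1 difference was not tested.

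**Figure D4:**
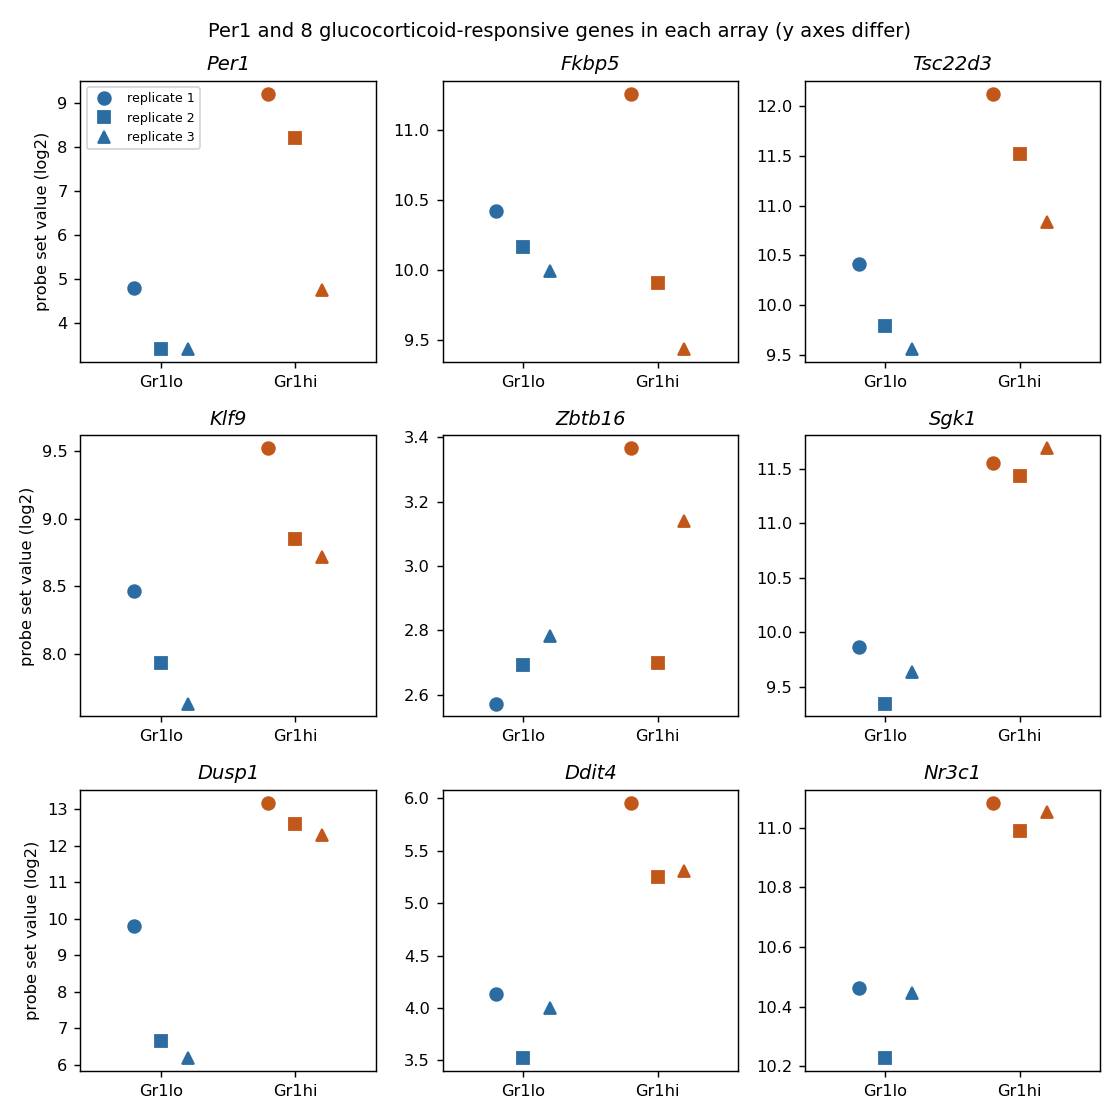
Log2 GCRMA value (y axis, scaled for each gene) of Per1 and the 8 glucocorticoid-responsive genes in the 3 Gr1lo (blue) and 3 Gr1hi (orange) arrays, with a symbol for each replicate. In Per1, Fkbp5, Tsc22d3, Klf9 and Dusp1 the replicate 1 array is the highest and the replicate 3 array the lowest in both groups, whereas Sgk1, Ddit4, Nr3c1 and Zbtb16 do not show that order.

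Likeness of pattern was measured as the root mean square distance over the 6 arrays after each gene was centred on its own mean, where a smaller value is a closer match. For Per1 the nearest tested genes were Pde7b (0.84) and Fbxo31 (1.03). Nfil3 was nearest to Hexim1 (0.10) and Kdm2a (0.11), and Arntl to Mrpl55 (0.07) and Qtrt1 (0.07). Clock was nearest to Arhgef11 (0.03) and Spef1l (0.04), and Nr1d2 to Tent5a (0.07) and Slc25a36 (0.07). The clock genes that did not pass the test had neighbours at 0.03 to 0.08: Ttc25 and Tac1 for Per2, Pcdh7 and Foxred1 for Cry1, Pcyox1l and Btbd11 for Cry2, and Ccdc39 and Lrp2bp for Dbp.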

How the data were processed

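The deposited table holds log2 values of 45101 probe sets on each of 6 arrays. The submitters' processing notes name GCRMA as the authors' method, with no version in the sources used here. RNA was isolated with a column kit and 100 ng were labelled, per the labels' protocols. GCRMA as usually run subtracts background and equalizes array distributions, which affects low values most. Array medians were 2.86 to 2.94.

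Probe sets were named by a table of the platform annotation (34945 with 1 symbol, 932 with several, 9160 with none, 64 controls). For each of 18193 genes, the probe set of highest mean over the 6 arrays was used. A gene, and in a second fit a probe set, was tested if 3 or more arrays exceeded their own 40th percentile (2.57 to 2.68). Groups were compared with limma 3.58.1 in R 4.3.3 (eBayes with trend, two-sided, Benjamini-Hochberg over 12732 genes or 22695 probe sets, threshold 0.05). The fit was tested on simulated data. Alternatives were other filters, probe set means, variance models, array scalings, array weights, a replicate block, a factor for the replicate 3 arrays, a stricter threshold, and arrays left out.

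The members and lists were chosen with earlier results of these data known. By rule the text names all members, all tested genes of the other clock transcription list, up to 6 genes with the smallest p of each other list, and the 2 nearest tested genes of each tested member, without provisional symbols; genes named outside it were chosen after their values were seen.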

Additional observations from a re-analysis of the deposited data

How the results depend on the processing

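The calls rest on the array scaling more than on any other choice tried. With arrays centred on the median of tested genes 5 clock genes were higher and 0 lower in Gr1hi (limma; 6 higher and 0 lower at an unadjusted p under 0.05), where 65.5% of all tested genes were higher and 18.2% lower, and 1 of their probe sets was lower; with the hybridization controls 2 probe sets were higher, against 5 as deposited. At a threshold of 0.01, 2 clock genes were higher instead of 3 and 1 lower instead of 2. Among all tested genes 18.8% were higher and 27.2% lower at that threshold. Signs turned for small differences: after centring on tested genes Per2 (0.52), Cry1 (0.63), Cry2 (0.16), Nr1d2 (0.0068), Tef (0.47), Noct (0.26) and Slc25a36 (0.077); with the hybridization controls Dbp (-0.19), Npas2 (-0.11), Rora (-0.063), Ciart (-0.11) and Fkbp5 (-0.25); with the mean of probe sets Per2 (0.25) and Tef (0.0945); with repeated quantile normalization Per2 (0.082) and Fkbp5 (-0.021); with array weights Fkbp5 (-0.0086); and without replicate 3 of both groups Dbp (-0.081). Leaving out 1 array gave Per2 -0.29 to 0.033, Cry1 -0.15 to 0.025, Dbp -0.051 to 0.17 and Fkbp5 -0.52 to 0.39. The cause was not tested. In 144 of 162 alternative values of the 9 tested clock genes the direction and call were kept.

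The replicate numbers are not stated to pair samples, and deviations of same-numbered arrays correlated at 0.166, 0.00435 and 0.145 across genes, against -0.188 to 0.0436 for other pairs. The correlation was near 0 for replicate 2, so the numbers were not taken as pairs, although the replicate 3 arrays share the Xist signal. With the replicate block 3 clock genes were higher and 2 lower, as without it, and 3 probe sets were lower instead of 2. Several clock genes lie near background, which limits what 3 arrays per group can resolve.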

Other observations

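The order of the arrays within each group was read for all tested genes after the values were seen. The replicate 1 array was the highest and the replicate 3 array the lowest in both groups in 3 of the 9 tested clock genes, Per1, Per2 and Cry1, and in 4 of the 8 glucocorticoid-responsive genes, Fkbp5, Tsc22d3, Klf9 and Dusp1. Among all 12732 tested genes this held for 2.27%. It held for 0 of 10 immediate early genes, 0 of 8 other clock transcription genes, 0 of 4 clock output genes and 1 of 13 clock protein regulators (Sirt1). Per1, also known as an immediate early gene, and Dusp1 were counted in the lists given above and not among those 10, so these counts depend on how genes were listed. In Per2 and Cry1 the spread was small, at 6.39 to 5.88 and 9.72 to 9.37 in Gr1lo. The order was read on the probe set of highest mean, and the other tested Per2 probe sets did not show it. On 1417603_at Gr1lo replicates 1 to 3 read 2.91, 2.92 and 2.95, and on 1457350_at replicate 2 was the lowest in both groups. The labels do not say what arrays of 1 number share.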
